A study of Mus musculus with 4 samples.

Results

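Chromatin immunoprecipitation sequencing (ChIP-Seq) sequences the DNA that an antibody pulls down with a protein, and a peak is a place where more of it was found than in input DNA. The genes described here are 10 transcription factors of hematopoietic stem and progenitor cells, namely *Runx1*, *Gata2*, *Gfi1b*, *Tal1*, *Lyl1*, *Lmo2*, *Fli1*, *Erg*, *Meis1* and *Myb*. They were chosen by name, with earlier results of these data known, so the comparisons with all genes below are a description only. Among them, *Runx1*, *Gfi1b* and *Gata2* had been listed by the study as genes with distal p53 binding. Every p53 peak whose centre lay within 200 kb of any annotated transcription start site (TSS) of a member was counted. This gave 30 of the 7384 deposited peaks. The study made 4 libraries, 1 per condition. For p53 these were from Ba/F3 cells without treatment, from Ba/F3 cells taken 3 h after irradiation with 3 Gy, and from HPC7 cells without treatment, and the last was of the histone mark H3K27ac in the irradiated Ba/F3 cells. Ba/F3 is a murine line of B cell progenitors grown with interleukin-3, and HPC7 a murine line of multipotent progenitors grown with stem cell factor. In all libraries, untreated ones included, the cells stably expressed triple-FLAG-tagged MYSM1 and were kept under puromycin. The HPC7 line, made from embryonic stem cells, carries a *Lhx2* transgene. Each kind of progenitor was thus represented by a single line. The deposited list joins the p53 libraries and gives only positions and a number for each peak, so the values below come from positions alone, and the list does not show in which library a peak was found or how deeply the libraries were sequenced. It holds no expression values either, so the identity of the lines could not be checked against marker genes.

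p53 binds DNA as a tetramer at a pair of adjacent decamer half-sites and is stabilized after DNA damage. The members encode factors that set and keep the identity of blood stem and progenitor cells. TAL1, LYL1, LMO2, GATA2, RUNX1, ERG and FLI1 occupy many of the same enhancers together, including enhancers of their own genes, and GFI1B, MEIS1 and MYB act in the same cells as a repressor, a homeodomain cofactor and an activator of proliferation genes. Enhancers of these genes often lie far from the TSS. The study asked where p53 binds in such progenitors with and without irradiation.

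A p53 site was searched within 100 bp of each peak centre as a full consensus of 20 bases on either strand, with both CNNG cores intact, at most 3 mismatches and no spacer between the half-sites. It was found at 7 of the 30 member peaks. Their sequences are shown because the p53 site is the feature that set them apart from the other member peaks. Each line gives the 100 bp of the peak on the plus strand of mm9, with the site in capitals. The *Runx1* peaks are chr16:92780274-92780373 and chr16:92996077-92996176, the *Gfi1b* peak chr2:28355996-28356095, the *Lyl1* peak chr8:87173618-87173717, the *Lmo2* peak chr2:103699880-103699979, the *Erg* peak chr16:95654305-95654404 and the *Myb* peak chr10:20893486-20893585.
Runx1 peak 4217: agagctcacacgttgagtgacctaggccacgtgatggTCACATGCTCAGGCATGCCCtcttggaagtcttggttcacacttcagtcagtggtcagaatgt
Runx1 peak 5347: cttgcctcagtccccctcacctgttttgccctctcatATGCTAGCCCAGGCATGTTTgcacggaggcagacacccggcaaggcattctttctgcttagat
Gfi1b peak 1700: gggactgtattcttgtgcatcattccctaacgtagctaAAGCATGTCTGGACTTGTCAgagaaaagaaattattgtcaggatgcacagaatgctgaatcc
Lyl1 peak 6352: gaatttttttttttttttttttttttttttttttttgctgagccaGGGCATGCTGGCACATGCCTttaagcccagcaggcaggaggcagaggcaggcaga
Lmo2 peak 5087: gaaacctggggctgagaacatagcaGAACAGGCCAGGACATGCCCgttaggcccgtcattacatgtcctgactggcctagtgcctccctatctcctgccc
Erg peak 530: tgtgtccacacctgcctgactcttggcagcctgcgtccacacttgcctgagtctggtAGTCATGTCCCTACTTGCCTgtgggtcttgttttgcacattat
Myb peak 2189: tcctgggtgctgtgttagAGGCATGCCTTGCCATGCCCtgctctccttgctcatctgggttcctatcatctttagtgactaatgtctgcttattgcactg

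The sites of *Runx1* peak 5347 and *Gfi1b* peak 1700 were nearest to the consensus, with 1 mismatch each. Those of *Runx1* peak 4217, *Lyl1* peak 6352, *Lmo2* peak 5087 and *Myb* peak 2189 had 2 mismatches, and that of *Erg* peak 530 had 3. At 4 of the 7 peaks, those of *Runx1*, *Erg* and *Myb*, the member was also the nearest protein-coding gene.

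The remaining 23 member peaks had no such site. Among them were the nearest peaks to 7 of the 8 members with a peak, all except *Myb*. Those within 50 kb, which leaves out *Lmo2* peak 1408, are shown in the same way, in lower case throughout, together with the peak 76.6 kb upstream of *Gata2*. Their positions are chr16:92801987-92802086 for *Runx1*, chr6:88115233-88115332 and chr6:88067222-88067321 for *Gata2*, chr2:28484694-28484793 for *Gfi1b*, chr4:114768612-114768711 for *Tal1*, chr8:87252643-87252742 for *Lyl1* and chr16:95637665-95637764 for *Erg*.
Runx1 peak 4222: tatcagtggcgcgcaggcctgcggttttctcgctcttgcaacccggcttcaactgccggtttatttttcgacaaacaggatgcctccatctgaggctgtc
Gata2 peak 1407: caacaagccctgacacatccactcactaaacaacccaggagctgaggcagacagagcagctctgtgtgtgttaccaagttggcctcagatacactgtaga
Gata2 peak 3867: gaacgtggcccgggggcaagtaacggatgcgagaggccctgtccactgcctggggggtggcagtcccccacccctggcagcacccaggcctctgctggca
Gfi1b peak 1305: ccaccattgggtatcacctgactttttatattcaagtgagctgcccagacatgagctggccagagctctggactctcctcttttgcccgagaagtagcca
Tal1 peak 6867: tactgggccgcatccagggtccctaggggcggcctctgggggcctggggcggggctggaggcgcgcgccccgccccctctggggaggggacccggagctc
Lyl1 peak 3053: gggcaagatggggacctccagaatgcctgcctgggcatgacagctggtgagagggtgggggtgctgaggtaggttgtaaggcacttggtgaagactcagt
Erg peak 153: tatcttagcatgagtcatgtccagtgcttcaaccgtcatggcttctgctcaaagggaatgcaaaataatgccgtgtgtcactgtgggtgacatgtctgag

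Of the 10 members, 8 had a peak within the limit of 200 kb. This share is close to the background, since among 22380 annotated protein-coding genes 75.1% had one. *Gfi1b* and *Erg* had 6 peaks each, *Runx1* 5, *Lmo2* 4, *Gata2* and *Lyl1* 3 each, *Myb* 2 and *Tal1* 1. *Fli1* and *Meis1* had none. At least 2 peaks were found at 7 members and 52.8% of all protein-coding genes, at least 3 at 6 members and 34.4%, at least 4 at 4 members and 20.6%, at least 5 at 3 members and 11.6%, and at least 6 at 2 members and 6.26%. No member reached 7, which 3.04% of genes did. The median was 3 peaks per member, and 2 peaks over all protein-coding genes (quartiles 1 and 3). Because all TSSs were used, long genes with several promoters had longer windows, 576 kb for *Erg* and 530 kb for *Runx1* against a median of 400.1 kb. Per Mb of window, *Gfi1b* had 14.8 peaks, *Erg* 10.4, *Lmo2* 9.68, *Runx1* 9.43, *Lyl1* 7.5, *Gata2* 7.41, *Myb* 5.00, *Tal1* 2.48, and *Fli1* and *Meis1* 0. The median was 7.46 for the members and 4.62 over protein-coding genes. By this density *Gfi1b* was exceeded by 5.05% of protein-coding genes and *Erg* by 11.2%.

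**Figure D1:**
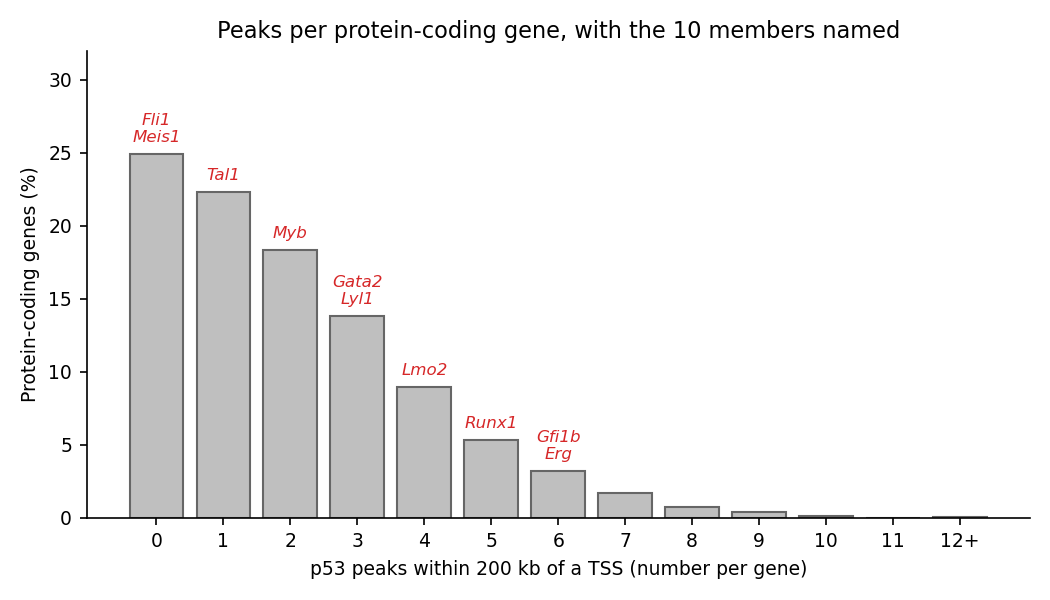
Share of protein-coding genes (vertical axis, %) by the number of p53 peaks within 200 kb of a TSS (horizontal axis, 12 and more joined), with the 10 members named above the bar of their count. The members spread from the bar at 0 (*Fli1* and *Meis1*) to that at 6 (*Gfi1b* and *Erg*).

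No member had a peak within 1 kb of its own TSS, which is near the background, since 6.13% of protein-coding genes had one. The 30 peaks lay from 5.10 to 197 kb from the nearest TSS of the member, 2 of them within 10 kb, 12 between 10 and 50 kb, 6 between 50 and 100 kb and 10 beyond 100 kb. Within 100 kb, 8 of 10 members had a peak, against 57.8% of protein-coding genes, within 50 kb 7 of 10, against 40.4%, and within 10 kb 2 of 10 (*Erg* and *Gfi1b*), against 15.6%. The median distance to the nearest peak was 28.0 kb for the members and 74.2 kb for all protein-coding genes. At the limit itself, the last peaks inside were at 168 kb (*Erg*), 170 kb (*Runx1*) and 197 kb (*Lmo2*), and the first outside at 207 kb (*Myb*), 208 kb (*Tal1*) and 227 kb (*Fli1*). Of the 30 peaks, 18 were upstream and 12 downstream of the nearest TSS of the member. In introns of *Runx1* or *Erg* lay 6, and 5 lay within other genes only. The other 19 (63.3%) lay between genes, against 52.8% of all listed peaks.

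**Figure D2:**
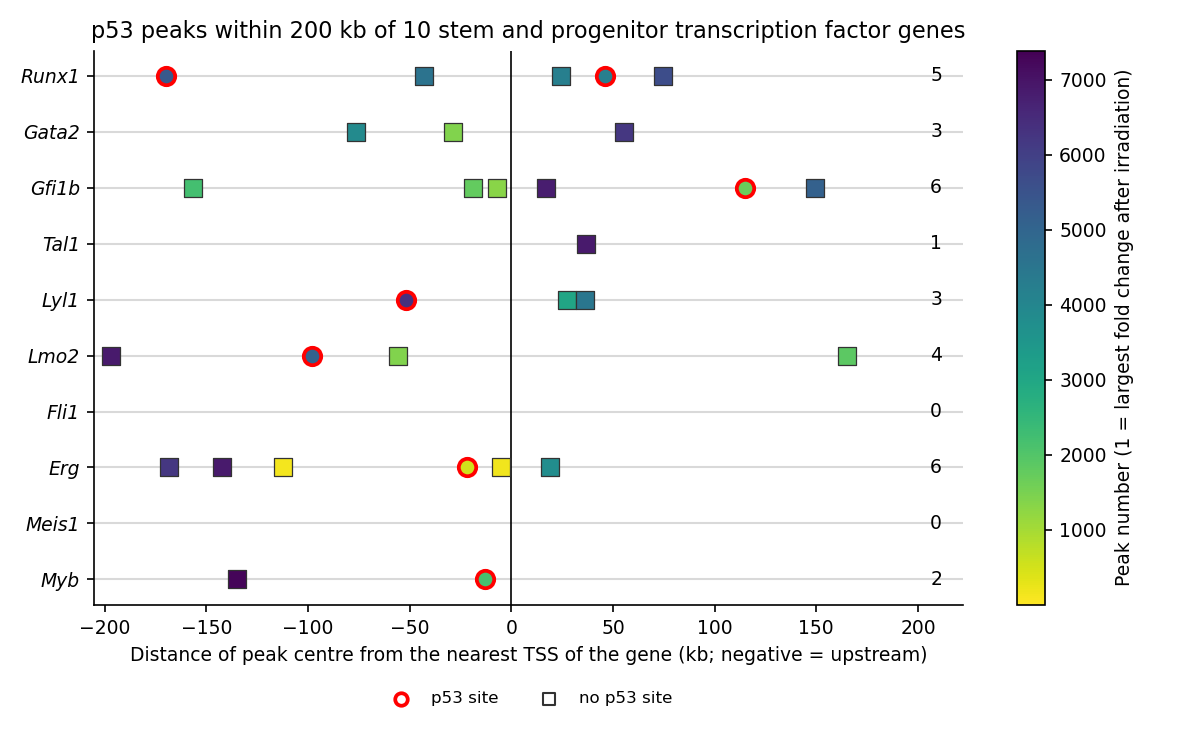
Distance of each peak centre from the nearest TSS of the member (horizontal axis, kb, upstream negative), 1 line per gene with its number of peaks at the right. Circles with a red edge have a p53 site, squares have none, and the colour gives the peak number from 1 (yellow) to 7384 (dark). No peak lies at a start site, and the lines of *Fli1* and *Meis1* are empty.

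For 12 of the 30 peaks (40%) the member was the nearest protein-coding gene, and for 18 another gene was nearer. Over all pairs of a protein-coding gene and a peak within 200 kb, 14.7% had the gene as the nearest. This share was 33.3% for partners of the encoded proteins, 41.2% for paralogs of the members and 48.5% for known p53 targets. The members also had fewer neighbors, with a median of 3 other protein-coding genes with a TSS in the window against 7 over all genes, and the part of this spacing in the share was not tested. Of the 10 members, 6 were the nearest gene to at least 1 peak, against 22.9% of protein-coding genes. *Runx1* and *Erg* gave 8 of the 12 peaks. Both were nearest to at least 3, against 5.55% of protein-coding genes at 2 or more and 1.34% at 3 or more. *Runx1* was the nearest gene to all 5 of its peaks, against 0.371% of protein-coding genes at 4 or more and 0.121% at 5 or more, and it had 1 other protein-coding gene in its window. At the other end, *Tal1* and *Lyl1* were the nearest gene to none of theirs.

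*Runx1*, which encodes the DNA-binding subunit of core-binding factor, lies on the minus strand of chromosome 16 from 92601712 to 92826311 (mm9) and had 5 annotated TSSs. Peak 4222 was in intron 2 of the transcripts from the distal promoter, 24.2 kb downstream of their TSS, and peak 4217 in the same intron at 45.9 kb. Peak 5659 was in an intron farther downstream, 74.6 kb from an internal TSS. Upstream of the gene were peak 4584 at 43.2 kb and peak 5347, which had the site with 1 mismatch, at 170 kb. The peaks thus lay within the gene and upstream of it, with none past its 3' end, and both of those with a site lay away from the one nearest to a promoter.

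*Gata2*, a zinc finger factor needed for the emergence and upkeep of stem cells, spans 88143885 to 88157024 on chromosome 6 (plus strand). Its nearest peak, 1407, was 28.6 kb upstream. Peak 3867 was 76.6 kb upstream and nearer to *Rpn1* (32.8 kb), which encodes a subunit of the oligosaccharyltransferase. Peak 6225 was 55.6 kb downstream and nearer to *Dnajb8* (31959 bp). None of the 3 had a p53 site, with or without a spacer.

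*Gfi1b*, a transcriptional repressor of erythroid and megakaryocytic cells, lies on the minus strand of chromosome 2 from 28464970 to 28477502, and was the nearest gene to peak 1305 alone, 7.24 kb upstream. Peak 1764, 18.7 kb upstream, lay 515 bp from a TSS of *Tsc1*, an inhibitor of mTOR signaling. On the other side, peak 6787 was 17.1 kb from an internal TSS of *Gfi1b* and 14.5 kb from *Gtf3c5*. The peak with the 1-mismatch site, 1700, was 115 kb away in an intron of *Gbgt1*. Peak 5115 lay 149 kb away in the UTR of 1700007K13Rik, 43 bp from its TSS, and peak 2214 at 156 kb in an intron of *Ak8*. The high count of *Gfi1b* was therefore shared with several other genes, of which 11 had a TSS in its window.

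*Tal1* and *Lyl1* each encode a basic helix-loop-helix protein, and *Lmo2* encodes the adaptor that joins such a protein to GATA factors. *Tal1*, which spans 114729031 to 114744360 on chromosome 4 (plus strand), had the single peak 6867, at 39.6 kb from the first TSS and 36.5 kb from the last, and 5.12 kb from *Pdzk1ip1*. It was GC-rich (73.6% GC over the window searched). *Lyl1*, at 87225356 to 87228614 on chromosome 8 (plus strand), had peaks 3053 and 4496 at 27.3 and 36.4 kb downstream, both in an intron of *Nfix*, itself a transcription factor gene, and nearest to the TSS of G430095P16Rik (5.79 and 14.8 kb). The peak 6352 was 51.7 kb upstream and 10.8 kb from *Cacna1a*, a calcium channel gene. *Lmo2*, at 103798143 to 103822035 on chromosome 2 (plus strand), was the nearest gene to peak 1408, 55.7 kb upstream. Its other upstream peaks were 5087 at 98.2 kb, nearer to *Caprin1* (62.1 kb), and 6888 at 197 kb, and peak 1850 was 165 kb downstream, nearer to A930018P22Rik (13.3 kb). Peak 6888 lay 36 bp from the TSS of *Nat10*, an RNA acetyltransferase gene. Of these 8 peaks, *Lmo2* peak 1408 was the only one with *Tal1*, *Lyl1* or *Lmo2* as its nearest gene.

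The ETS factor genes differed from each other. *Erg*, on the minus strand of chromosome 16 from 95580776 to 95808200, had 3 intronic peaks. Peak 153 lay 5.10 kb upstream of an internal TSS, peak 530 at 21.7 kb upstream of the same TSS, and peak 3800 at 18.8 kb downstream of another. Upstream of the gene were peaks 129, 6872 and 6223, at 112, 142 and 168 kb, all nearer to the ETS gene *Ets2*, at 3.37, 13.2 and 39.1 kb. *Fli1*, on the minus strand of chromosome 9 from 32229793 to 32348974, had its nearest peak at 227 kb and 3 peaks within 500 kb. Its paralog and neighbor *Ets1* had no peak within 200 kb either, the nearest being at 285 kb.

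*Meis1*, a homeodomain partner of HOX proteins on the minus strand of chromosome 11 from 18780433 to 18918961, had no peak within 500 kb, where 91.6% of protein-coding genes had one. Its nearest peak was 817 kb away, and 3.50% of protein-coding genes had a more distant one. *Myb*, on the minus strand of chromosome 10 from 20844736 to 20880790, had peak 2189 at 12.7 kb upstream, with a p53 site, in the interval between *Myb* and *Hbs1l*. Peak 7278 lay 135 kb upstream and 35 bp from the TSS of *Hbs1l*. An absent peak says only that none was called at the threshold of the study.

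Several enhancers of these genes are known by their distance in kb from the gene start, and the peaks were set beside 10 such names. The names were chosen with earlier results of these data known, so the matches and the shares beside them are a description only. A peak centre lay within 2.5 kb of the named distance for 5 of them: *Tal1* +40 (0.370 kb off), *Gata2* -77 (0.386 kb off), *Erg* +85 (0.881 kb off), *Gfi1b* +16 (1.14 kb off) and *Runx1* +23 (1.22 kb off). For *Erg* and *Gfi1b* this held only from an internal TSS, and counted from the first TSS of each gene 3 of the 10 were met. A gene with more TSSs had more positions to match, and *Erg* had 6 and *Gfi1b* 3. No peak met *Tal1* +19 (3.86% of protein-coding genes had a peak at that distance), *Gata2* -2.8 (5.42%), *Gata2* +9.5 (3.86%), *Lmo2* -75 (4.14%) or *Fli1* +12 (3.81%). At the distances that were met, a peak was found for 4.06% of protein-coding genes at +40, 3.99% at -77, 4.39% at +85, 3.82% at +16 and 3.87% at +23. The names give only a distance, so overlap with the enhancers themselves was not measured. None of the 5 peaks had a p53 site without a spacer. *Erg* peak 3800, at chr16:95662042-95662141, did hold a pair of half-sites with 0 mismatches that were 10 bases apart. Its sequence is printed with these half-sites in capitals, and the peak is counted without a site because of the spacer.
Erg peak 3800: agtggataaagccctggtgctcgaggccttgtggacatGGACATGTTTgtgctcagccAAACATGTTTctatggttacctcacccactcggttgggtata

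The number in each peak name is its place in the order of fold change in p53 binding after irradiation in Ba/F3 cells, from the largest gain at 1 to reduced binding at the end of the list, and the folds themselves are not in the list. The study classed most of the listed peaks as gaining binding, so a number past the middle need not mean reduced binding. The member peaks had a median number of 4219.5 (quartiles 1786 and 6082), and the median of the whole list is 3692.5. This order depended on the distance limit, since the median of the member peaks was 4042 at 100 kb but 3426.5 at 50 kb and 3429 at 500 kb, both below that of the list. Of the 30 peaks, 12 were among the first 3692, 3 among the first 738 (10%, with 9.99% of the list) and 5 among the last 739 (16.7%, with 10.0% of the list). The 3 early peaks were all counted for *Erg*. Peaks 153 and 530 lay in its introns, and peak 129 was 112 kb upstream and nearer to *Ets2*. The 5 *Runx1* peaks were close together, between 4217 and 5659, whereas those of *Erg* ran from 129 to 6872 and those of *Gfi1b* from 1305 to 6787.

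Peaks that had the member as the nearest gene ran from number 153 to 5659, with a median of 2994.5, and those nearer to another gene from 129 to 7278, with a median of 5101. The 5 peaks among the last 739 were *Gfi1b* 6787, *Tal1* 6867, *Erg* 6872, *Lmo2* 6888 and *Myb* 7278, and each was nearer to another gene. None of the 5 had a p53 site, as was usual there, since 8.12% of all the last 739 peaks had one. *Lmo2* 6888 and *Myb* 7278, at the promoters of *Nat10* and *Hbs1l*, held 17 and 28 CpG dinucleotides in the window searched and *Tal1* 6867 held 14, whereas *Erg* 6872 held 4 and *Gfi1b* 6787 held 1. The median over all peaks was 2.

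**Figure D3:**
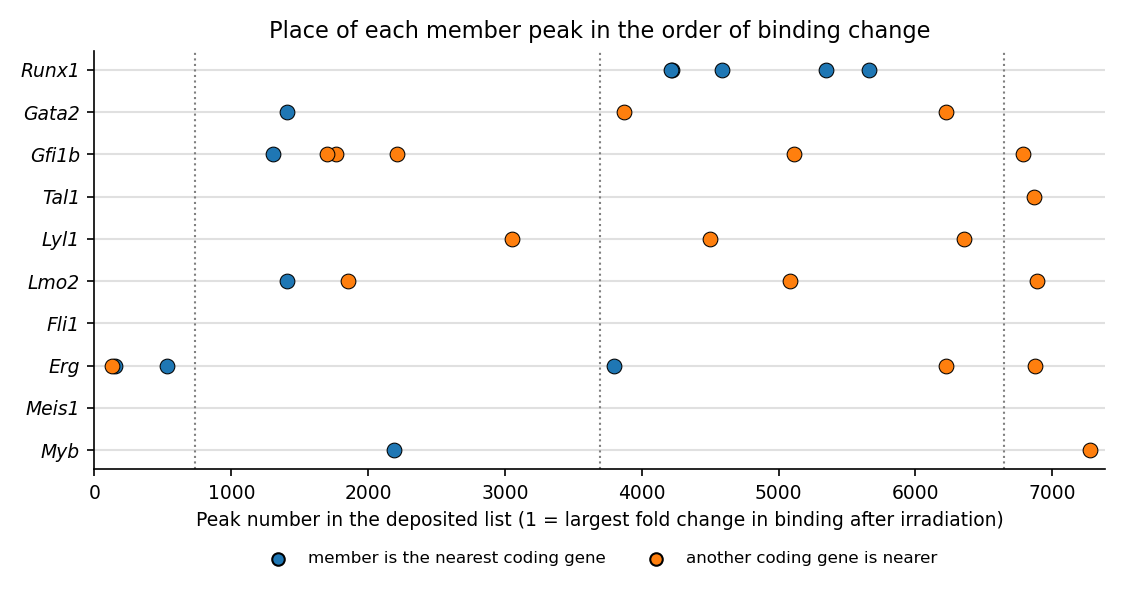
Peak number of each member peak in the deposited list (horizontal axis, 1 is the largest fold change after irradiation), 1 line per gene, with dotted lines at 10%, 50% and 90% of the list. Blue points, whose nearest protein-coding gene is the member, lie between 153 and 5659, and the points beyond the last dotted line are all orange, for peaks nearer to another gene.

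The share of member peaks with a p53 site was 23.3% (7 of 30, 95% Wilson confidence interval 11.8% to 40.9%), and that of all listed peaks was 54.5% (interval 53.3% to 55.6%). Such intervals describe counting error alone. Among the first 3692 peaks of the order the shares were 25% near the members (3 of 12) and 53.8% in the list, and among the rest 22.2% (4 of 18) and 55.1%. Counted by gene, 6 of 10 members had a peak with a site within 200 kb, near the 56.6% of all protein-coding genes. With at most 2 mismatches the share was 20.0% for member peaks and 40.8% for all, and with at most 4 it was 33.3% and 61.5%. A spacer of 0 to 13 bases raised it to 46.7% (14 of 30, interval 30.2% to 63.9%) and to 72.7%. The member peaks that then gained a site were *Runx1* 5659, *Gfi1b* 5115 and 2214, *Lyl1* 4496, *Lmo2* 1408, and *Erg* 3800 and 6223.

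**Figure D4:**
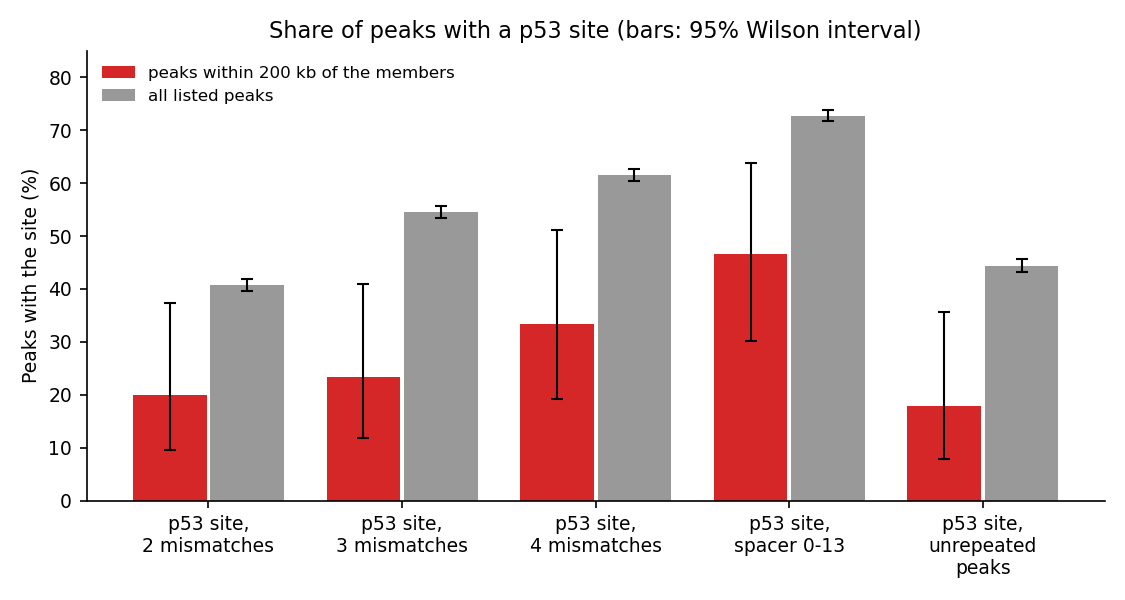
Share of peaks with a p53 site (vertical axis, %) among the peaks near the members (red) and all listed peaks (grey) under 5 ways of counting, with 95% Wilson intervals as error bars. The red bars run from 17.9% to 46.7% and the grey bars from 40.8% to 72.7%.

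Repeated sequence entered few of the member peaks. The windows of 2 of 30 resembled another listed peak (at least 80% identity over 100 bp), compared with 22.5% of the list. *Lmo2* peak 5087 resembled 526 other peaks and had 584 other copies in the genome, and *Lyl1* peak 6352 resembled 12 other peaks and had 42840 other copies. Both carried a p53 site. Among peaks that resembled no other, the share with a site was 17.9% near the members (5 of 28, interval 7.88% to 35.6%) and 44.4% in the list.

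The windows were also searched, on both strands, for short sequences bound by the factors that the members encode. The E-box CAGCTG, bound by TAL1 and LYL1 with E proteins, was at 7 of 30 member peaks (23.3%) and 9.80% of all peaks. These were *Runx1* 4217, *Gata2* 6225, *Gfi1b* 6787, *Tal1* 6867, *Lyl1* 3053, and *Erg* 129 and 6223. As 8 kinds of sequence were searched and the 30 peaks lie around 8 genes, these shares are a description only. GATA factors bind GATAAG, which was at 1 member peak and 6.22% of all peaks. The RUNX1 sequence TGTGGT was at 2 member peaks, both in *Nfix* near *Lyl1*, and at 957 of the 7384 peaks. For ETS factors, GGAAGT was found at 4 member peaks and 12.1% of all peaks. The MEIS1 sequence TGACAG was at 7 member peaks and 17.6% of all peaks. For MYB, either AACTGNC or AACNGCC was at 5 member peaks and 15.2% of all, and for GFI1B the sequence AATCAC was at 3 member peaks and 11.8% of all. SP1, a factor of GC-rich promoters that is no member, binds GGGCGG, which was at 4 member peaks and 15.5% of all. A match gives letters in a window and not a bound site.

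Genes that work with the members were counted in the same way. Of 9 partners of the encoded proteins, 8 had a peak within 200 kb, where 75.1% of protein-coding genes had one, and 5 within 10 kb, against 15.6%. The partners had a median of 9 other protein-coding genes in their windows, compared with 3 for the members and 7 over all genes. Those with a peak within 10 kb were *Ldb1*, *Zfpm1*, *Cbfa2t3*, *Kdm1a* and *Cbfb*. *Ldb1*, whose product binds LMO2, had its nearest peak at 135 bp, and *Kdm1a*, a histone demethylase recruited by GFI1B, at 78 bp. *Zfpm1* and *Cbfa2t3*, corepressors of GATA factors and of TAL1, had theirs at 661 and 451 bp. *Cbfb*, the partner subunit of RUNX1, had a peak at 6401 bp. *Tcf3*, *Zfpm1* and *Cbfa2t3* had the most peaks, 9 each, while *Ep300* had none.

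Of 12 paralogs, 7 had a peak within 200 kb and 3 within 10 kb. *Mybl1* had its nearest peak at 38 bp, *Mybl2* at 111 bp and *Gata3* at 863 bp, whereas *Gata1*, *Gfi1*, *Lmo4*, *Ets1* and *Meis2* had none within 200 kb. *Runx2*, *Runx3* and *Mybl2* had the most, 3 each. *Meis1* and *Meis2*, with their nearest peaks at 817 and 740 kb, were thus both without a peak, as were *Fli1* and *Ets1*. As a reference for the distances, 10 known p53 targets all had a peak within 10 kb, at a median of 173 bp. In this reference list *Cdkn1a* had the most peaks within 200 kb, 6, which is the number at *Gfi1b* and *Erg*. Its nearest peak was at 49 bp, and 5 of its peaks had a p53 site, against 1 each at *Gfi1b* and *Erg*. The median number of peaks within 200 kb was 3 for the members, 3 for the partners, 2 for the paralogs and 2.5 for the p53 targets. The median distance to the nearest peak was 28.0 kb for the members, 6.40 kb for the partners, 142 kb for the paralogs and 0.173 kb for the p53 targets. A p53 site was at 7 of 39 pairs of a partner and a peak, 10 of 17 for the paralogs and 19 of 33 for the p53 targets, beside 7 of 30 for the members and 47.0% of the pairs over all protein-coding genes.

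**Figure D5:**
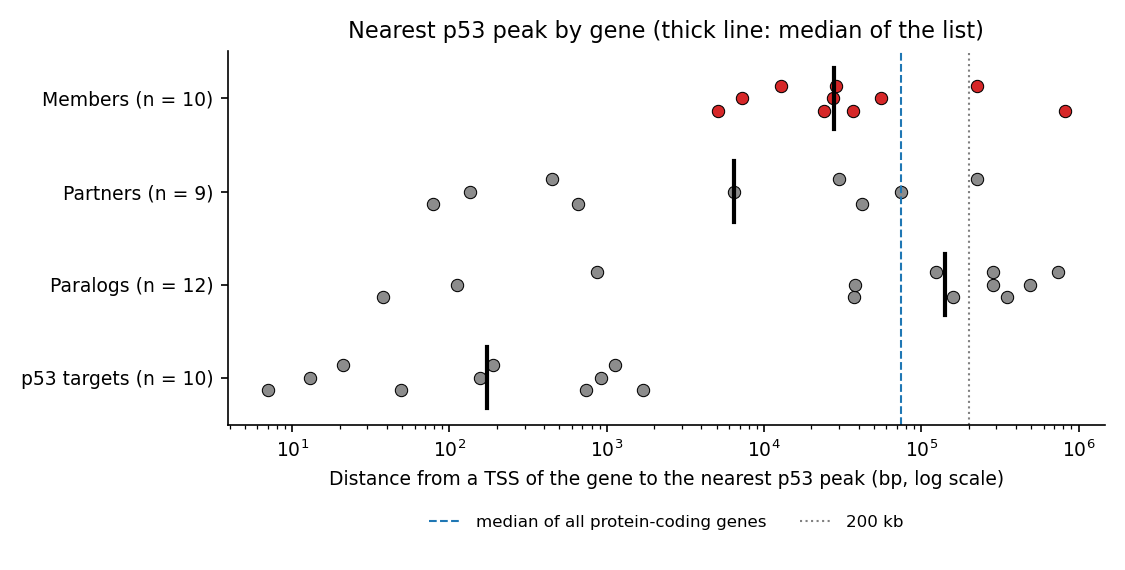
Distance from a TSS to the nearest p53 peak (horizontal axis, bp on a log scale) for each gene of the 4 lists, with the list median as a thick line, the median of all protein-coding genes dashed and the 200 kb limit dotted. The members lie from 5096 bp to beyond the limit, and the 10 p53 targets all lie below 2 kb.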

How the data were processed

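p53 ChIP-Seq was performed by the authors in Ba/F3 cells, untreated and irradiated, and in untreated HPC7 cells, with 1 library per condition. The submitters' processing notes name mm9, Bowtie 1.0.0 and MACS 1.4.1, and peaks were called by the authors against input DNA. The deposited file is 1 list of peaks of 100 bp, each with a name and number and with no count, height or p-value, and the meaning of the number as an order comes from the study's legend of its heatmap. How peaks of several libraries were merged was not given in the sources used here, the depth is not shown by this list, and the H3K27ac library was not analysed here. Peaks of 1 library cannot be replicates, so no test between conditions was made.

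TSSs were those of all GENCODE M1 transcripts on the same build (NCBIM37), and sequence came from that genome. Positions count from 1, and distances run from the peak centre. Windows reached 100 bp either side of the centre. The named genes are the 10 members with all their peaks. Of the partners (*Cbfb*, *Ldb1*, *Tcf3*, *Zfpm1*, *Cbfa2t3*, *Hoxa9*, *Kdm1a*, *Rcor1*, *Ep300*), the paralogs (*Runx2*, *Runx3*, *Gata1*, *Gata3*, *Gfi1*, *Tal2*, *Lmo1*, *Lmo4*, *Ets1*, *Meis2*, *Mybl1*, *Mybl2*) and the p53 targets (*Cdkn1a*, *Mdm2*, *Bbc3*, *Bax*, *Ccng1*, *Sesn2*, *Phlda3*, *Zmat3*, *Fas*, *Ei24*), those with a peak within 10 kb, with the most peaks or with none are named, except that the p53 targets, all within 10 kb, are named by the most peaks alone. *Gfi1* has no protein-coding record in this annotation. Another partner on the list is not reported here, for a reason unrelated to its values, and was left out of the counts and medians of the partners. Members, lists and named enhancers were chosen with earlier results of these data known. Sequences shown are the member peaks with a site and the nearest peaks within 50 kb, and 2 more were chosen after their values were seen (*Gata2* peak 3867 and *Erg* peak 3800). Similarity was searched by BLAST+ 2.17.0 with an e-value of 1e-10 and a word size of 11. The site search was tested on simulated data. Alternatives changed the distance limit, the TSSs, the site rule and the peaks counted. The software was samtools 1.23.1 and Python 3.11.15 with pysam 0.24.0, pandas 2.3.3, matplotlib 3.10.9 and SciPy 1.17.1.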

Additional observations from a re-analysis of the deposited data

How the results depend on the processing

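The distance limit moved the counts most. Within 50 kb there were 14 member peaks, within 10 kb 2 and within 500 kb 67, with medians per member of 1 at 50 kb and 6.5 at 500 kb, and within 10 kb 2 members had a peak. The share of protein-coding genes with a peak was 57.8% at 100 kb, 40.4% at 50 kb, 15.6% at 10 kb and 91.6% at 500 kb, and 74.0% with the 5'-most TSS of each gene. Limited to the first 3692 peaks, it was 55.6%, a setting added after the data were seen. The share of member peaks with a p53 site was 46.7% with a spacer of 0 to 13 bases. The number of members with a peak, 8, was also found at 100 kb, with protein-coding transcripts and with the 5'-most TSSs, and was 7 at 50 kb, 9 at 500 kb and 6 with the first 3692 peaks. The count of peaks nearest to the member, 12, was 10 with the TSSs of all annotated genes and 10 with the 5'-most TSSs. Leaving out repeated peaks and splitting the order for the site share were also chosen after the data were seen. No paired analysis was possible because there is 1 library per condition and the deposited list used here holds no value of a single library.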
